A study of Macaca mulatta with 6 samples.

Results

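The genes described here carry the family names SPATA, SPAG, SPACA, TEX, TSSK, SPEM, CATSPER and IZUMO, which were given to transcripts first found in testis or sperm. Members were taken by symbol, as 1 of these stems followed by a digit, or as a lettered CATSPER subunit, and 76 of the 17795 listed genes matched. The largest families were SPATA with 24 genes and TEX with 22, followed by SPAG with 9, CATSPER and SPACA with 6 each, IZUMO with 4, TSSK with 3 and SPEM with 2. Bulk RNA sequencing was performed on cultured spermatogonial stem cells (SSCs) of the rhesus monkey. There were 3 libraries with platelet-derived growth factor in the medium (SSC PDGF+) and 3 libraries of PDGF-free controls (SSC PDGF-). The study describes a 3D hydrogel culture, but its text does not state that the libraries of both groups came from it. The SSC medium of the study also held fetal calf serum, GDNF, EGF, LIF, bFGF and Wnt3a, among other additives. For the controls only the absence of PDGF is stated, not the rest of their medium. Replicate 1 of each group belonged to batch 1 and replicates 2 and 3 to batch 2. Neither donors nor culture days nor the separateness of the cultures are stated, so a p-value measures the spread between these libraries, which may be technical.

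Spermatogenesis runs from spermatogonia through meiotic spermatocytes to haploid spermatids, and spermatids build the acrosome, the flagellum and the compacted nucleus of the sperm. Most genes of these families are switched on in spermatocytes or spermatids and serve those structures: CATSPER subunits form the calcium channel of the sperm tail, IZUMO and SPACA proteins act at the acrosome and at fusion with the egg, TSSK genes encode testis-specific serine kinases, and several SPAG and SPATA proteins belong to the axoneme. A family name is not evidence of restriction to testis. Members such as SPAG5 (the spindle protein astrin), SPAG9 (a scaffold of JNK signaling) and TEX10 (a factor of ribosome biogenesis) are used by most cells, and axonemal members are shared with motile cilia of other tissues. General knowledge of each gene was therefore used to list 18 broad and 12 cilia-shared members. The remaining 46 were named testis-restricted. This class holds every member on neither list, and restriction to testis was not checked gene by gene.

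Library totals ranged from 10593805 to 14102697 counts, and 1 count corresponded to 0.0709 to 0.0944 CPM, the count scaled to library size. Marker genes did not match the label of SSCs in full. ID4 and ETV5 were counted at 71.1 to 177 CPM and FGFR3 at 7.16 to 81.8 CPM, with FGFR3 lower in SSC PDGF+ (log2 fold change -2.07, edgeR adjusted p = 0.019), whereas NANOS2 was at 0 in all libraries and GFRA1, ZBTB16 and RET had at most 9 counts in any library. COL1A1, a collagen of stromal cells, was at 2723 to 8241 CPM. Of the same list, COL1A2 was at 4955 to 6539 CPM, DCN at 714 to 1572 CPM, LUM at 89.5 to 195 CPM and MYH11 at 4.93 to 8.33 CPM. ACTA2 was at 134 to 328 CPM and lower in SSC PDGF+ (log2 fold change -1.19, edgeR adjusted p = 6.0e-04). The other 5 of these 6 genes were not called. STAR, a gene of Leydig cells, was at 215 to 322 CPM, but CYP11A1 of the same list was at 0. Of that list, CYP17A1 was at 0.821 to 3.35 CPM, DLK1 at 0.903 to 6.65 CPM, and INSL3, LHCGR and HSD3B2 had at most 8 counts in any library. GATA4, a gene of testicular somatic cells, was at 88.0 to 139 CPM, whereas WT1 was at 1.35 to 2.74 CPM and FATE1 at 0 in SSC PDGF+. The T cell marker CD3E and the leukocyte marker PTPRC were at 0, while CD68, listed for macrophages, was at 10.1 to 17.3 CPM and CD14 at 0.675 to 2.05 CPM. Across all genes, edgeR's quasi-likelihood test at a Benjamini-Hochberg adjusted p under 0.05 called 10.7% of 11539 tested genes lower and 7.61% higher in SSC PDGF+.

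Promoter sequences are shown first for the members that carry a full cAMP response element, because factors of the CREM family bind this element in spermatids. Of 75 member promoters read from the Mmul_10 genome at RefSeq gene starts, in windows from 250 bases before to 50 bases after the start and on both strands, 5 held TGACGTCA (6.67%), against 2.35% of 14913 promoters of listed genes. Each stretch below is 100 bases, 5′ to 3′ on the strand of the gene, with the element in capitals. The coordinates are chr19:48739710-48739809 on the minus strand for IZUMO1, chr19:50066926-50067025 on the minus strand for IZUMO2, chrX:47946738-47946837 on the plus strand for SPACA5, chr10:70841750-70841849 on the plus strand for SPAG4 and chr9:23376751-23376850 on the plus strand for SPAG6.
IZUMO1: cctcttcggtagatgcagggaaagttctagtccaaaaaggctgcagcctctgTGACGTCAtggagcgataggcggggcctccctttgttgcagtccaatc
IZUMO2: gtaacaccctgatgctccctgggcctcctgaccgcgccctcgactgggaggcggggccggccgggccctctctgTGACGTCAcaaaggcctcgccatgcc
SPACA5: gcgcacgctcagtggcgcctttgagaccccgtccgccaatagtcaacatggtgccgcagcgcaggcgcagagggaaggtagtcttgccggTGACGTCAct
SPAG4: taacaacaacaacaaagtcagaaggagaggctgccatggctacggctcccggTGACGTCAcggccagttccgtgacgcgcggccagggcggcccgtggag
SPAG6: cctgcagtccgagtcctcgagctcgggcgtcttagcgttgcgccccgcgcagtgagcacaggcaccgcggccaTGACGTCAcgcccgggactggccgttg
The element began 93 bases before the annotated start in IZUMO1, 115 bases before it in SPAG4, 7 bases before it in SPAG6 and 6 bases before it in IZUMO2, and 11 bases after it in SPACA5. The SPAG4 window held 2 such elements, of which 1 is shown. No broad member held the full element, and 3 of 45 testis-restricted members with a promoter did. These matches are letters in a window and not measured binding.

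The summed level of the testis-restricted members was lower with PDGF in every library. Of the 46, 24 were tested, 19 were called lower and none higher by edgeR, where 10.7% of all tested genes were called lower. Of the 24, 12 reached the filter's cutoff of 0.81 CPM in all 3 PDGF- libraries but in fewer than 3 PDGF+ libraries. The PDGF- group thus carried these 12 past the filter, which favours a difference in this direction, and all 12 were called lower. Of the other 12, 7 were called lower. Their summed level was 39.9, 38.1 and 41.4 CPM in SSC PDGF+ and 141, 192 and 191 CPM in SSC PDGF-. The PDGF+ libraries lay within a narrow range, and the lowest PDGF- library, replicate 1, was still far above all of them. The mean was 39.8 ± 1.66 CPM with PDGF and 175 ± 29.3 CPM without it (SD, n = 3 each), a 4.39-fold difference, or -2.14 as the log2 ratio of PDGF+ to PDGF-. Within batch 1 the log2 ratio was -1.82 and within batch 2 it was -2.27.

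Cilia-shared members were lower by less. Of 12, 11 were tested, 6 were called lower and none higher, and 4 of the 6 had been carried past the filter by the PDGF- group. The lower calls numbered 3 without replicate 3 of SSC PDGF+ or with replicates 2 and 3 summed, and 2 under either stricter filter on counts. Their summed level was 35.0, 37.2 and 27.9 CPM in SSC PDGF+ and 64.5, 60.4 and 52.2 CPM in SSC PDGF-, so that the groups did not overlap, with a log2 ratio of -0.82. Broad members stayed close to even in their sum but not one by one. Their sums were 641, 652 and 633 CPM against 647, 694 and 664 CPM, which overlapped between the groups. Genes with housekeeping roles held most of it, with means of 570 of 642 CPM with PDGF and 523 of 669 CPM without it. Of the 18, 1 was called higher and 4 lower, where 7.61% and 10.7% of all tested genes were. The 4 were IZUMO4, SPATA24, SPACA9 and SPATA33, none with a housekeeping role. The median log2 fold change was 0.01 for the broad class, -1.14 for the tested cilia-shared genes and -2.60 for the tested testis-restricted genes, beside 0.02 for all tested genes. Leaving out the members carried past the filter by the PDGF- group, it was -0.73 for the cilia-shared and -1.68 for the testis-restricted genes.

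**Figure D1:**
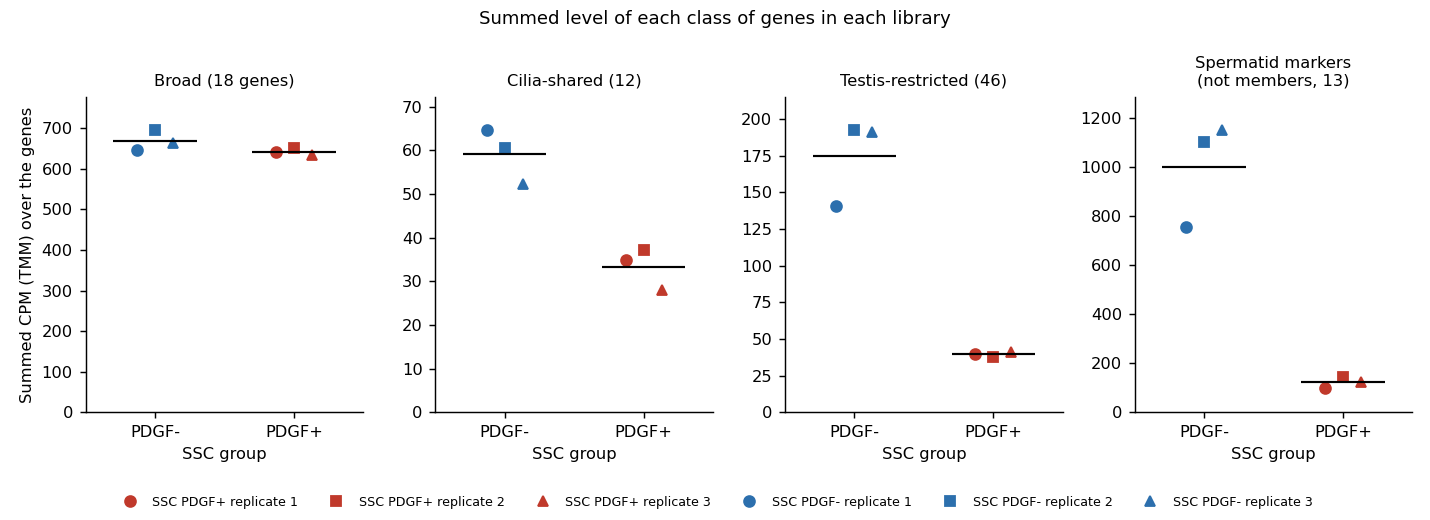
Summed CPM of the members of each class and of 13 spermatid marker genes that are not members, in each library (points, shape by replicate) with the group mean (line); the vertical axes start at 0 and differ between panels. The broad class lay at 633 to 694 CPM in all libraries, whereas the testis-restricted class lay at 38.1 to 41.4 CPM in SSC PDGF+ and 141 to 192 CPM in SSC PDGF-.

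Of the 76, 3 had no count in any library (IZUMO1R, TEX19 and TSSK2), 20 had counts but did not pass the filter on low counts, and 53 were tested. Of these 53, 29 were called lower, 1 was called higher and 23 were not called, with a median log2 fold change of -1.19. However, the PDGF- group carried 16 of the 53 past the filter in the sense given above, which favours a difference in that direction. All 16 were among the lower calls. These were CATSPER3, IZUMO2, SPACA7, SPAG6, SPAG17, SPATA4, SPATA9, SPATA17, SPATA19, SPATA21, SPATA46, SPEM1, TEX14, TEX36, TEX51 and TEX52, so the p-values printed for any of them below are not independent of the filter. Of the other 37, 13 were lower and 1 was higher, with a median of -0.56. With the replicate number as a block, 36 members were called lower and 5 higher, while the share of all genes called rose to 29.0% lower and 31.1% higher. Among 73 members with a count, 44 were lower in every PDGF+ library than in any PDGF- library and 3 were higher, where 18.6% and 15.1% of all 14791 genes with a count showed these orders. Without replicate 3 of SSC PDGF+ the number of lower calls was 18. The higher call was lost without any 1 of 5 libraries, and 2 members were called higher without replicate 1 of SSC PDGF-. Exonic bases of 18 members overlap another annotated gene, and apart from TSSK6 the overlap covers at most 16.9% of the exons, in TEX30.

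By family, 11 of 20 tested SPATA genes were lower and 1 was higher, 3 of 8 SPAG genes, 5 of 12 TEX genes and 2 of 3 SPACA genes were lower, and 2 of 4 CATSPER genes were lower. Both tested genes of each of the IZUMO, SPEM and TSSK families were lower. By role, which cuts across the families, lower calls were made in 12 of 17 axoneme and flagellum genes, 4 of 5 acrosome and fusion genes, 8 of 11 other testis genes and both tested kinases, but in none of 12 genes with housekeeping roles, where 10.7% of all tested genes were called lower. Of these lower calls, 6 of the 12, 3 of the 4 and 5 of the 8 were in members carried past the filter by the PDGF- group. No housekeeping member was carried in this way.

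**Figure D2:**
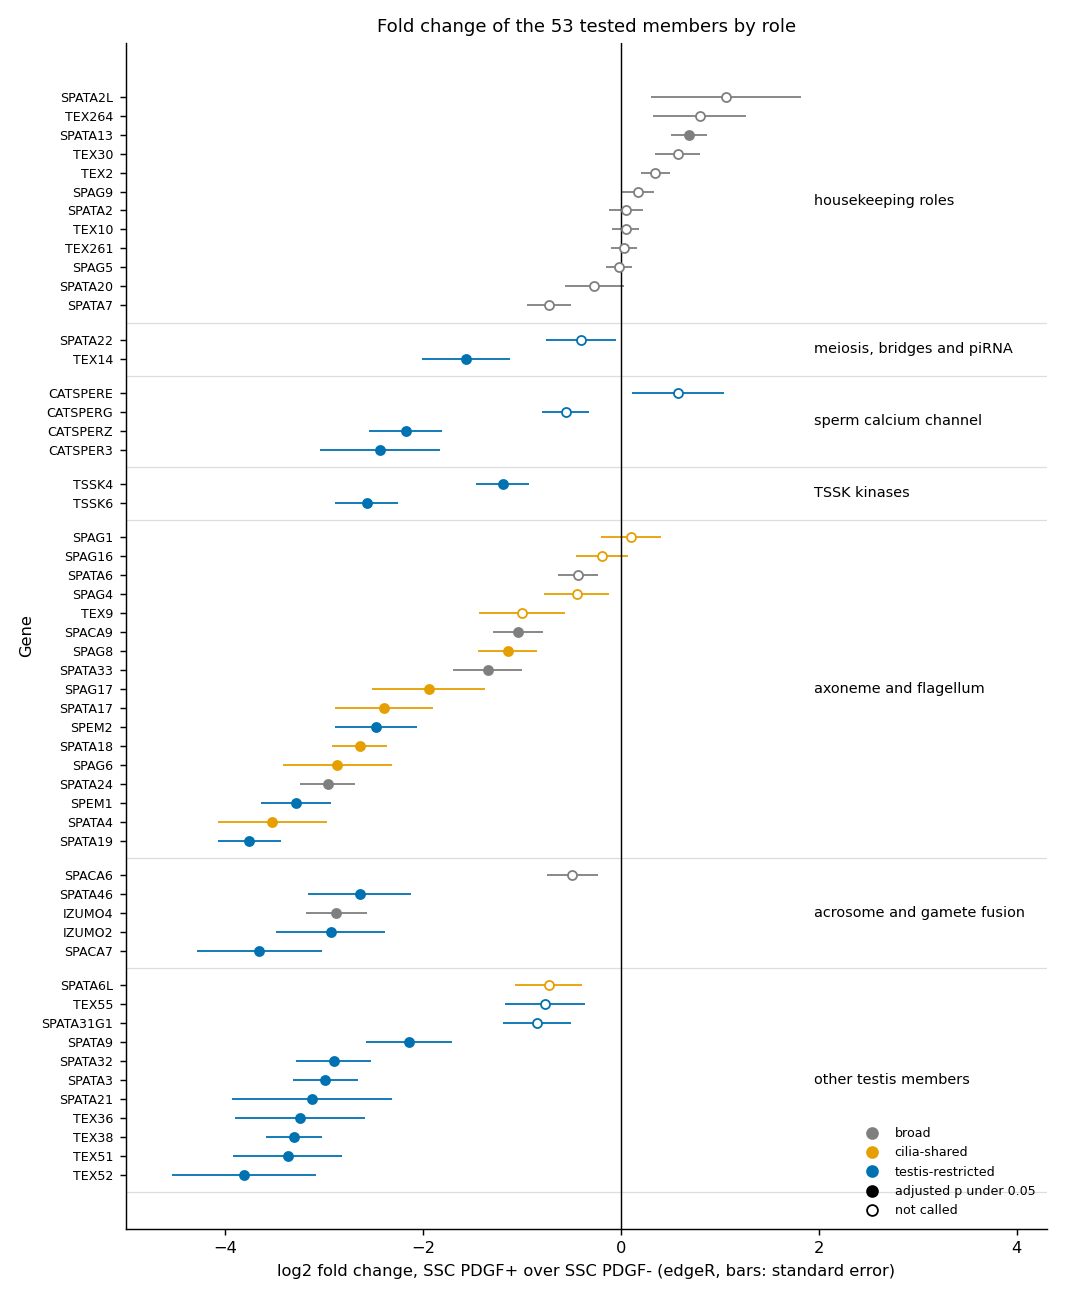
Log2 fold change of SSC PDGF+ over SSC PDGF- (horizontal axis, point) with its standard error (bar) for the 53 tested members, grouped by role and coloured by class; filled points passed an adjusted p under 0.05 in edgeR and open points did not. Points of the housekeeping group lie between -0.72 and 1.06, whereas those of the other testis members lie between -3.81 and -0.73.

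Among members without a defined structural role, SPATA3 had the highest mean CPM of the testis-restricted class over the 6 libraries, though not in SSC PDGF+, where SPATA22, CATSPERG and TSSK6 were above it. It stood at 2.16, 3.28 and 3.98 CPM in SSC PDGF+ and at 16.0, 29.4 and 29.3 CPM in SSC PDGF-. The groups were separated by more than their spread, with a log2 fold change of -2.99 (SE 0.33, edgeR adjusted p = 9.1e-04), and the difference was -2.87 within batch 1 and -3.01 within batch 2. TEX38, a partner of the palmitoyltransferase ZDHHC19 in spermatids, was at 1.62, 1.02 and 0.902 CPM against 10.6, 12.2 and 12.6 CPM. Its libraries agree closely within each group, and its log2 fold change was -3.30 (SE 0.28, edgeR adjusted p = 3.0e-04). SPATA32 was at 1.01, 1.25 and 0.902 CPM with PDGF and 4.93, 7.76 and 11.2 CPM without it (log2 fold change -2.90). TEX51 and SPATA9 stayed under 1 CPM in each PDGF+ library and reached 1.56 to 2.59 CPM and 2.05 to 2.35 CPM without PDGF, with log2 fold changes of -3.37 and -2.14. TEX55 was not called, at 3.24, 1.17 and 3.31 CPM against 5.34, 3.83 and 4.02 CPM (log2 fold change -0.77, edgeR adjusted p = 0.22), although its groups did not overlap and the fit with the replicate block called it (adjusted p = 0.035).

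Kinases of the TSSK family phosphorylate spermatid proteins during the shaping of sperm, and TSSK6 is required for DNA condensation and fertility in the mouse. TSSK6 was at 1.96, 3.6 and 4.43 CPM in SSC PDGF+ and at 15.6, 22.8 and 20.8 CPM in SSC PDGF-. The lowest PDGF- library exceeded the highest PDGF+ library, and the log2 fold change was -2.57 (SE 0.32, edgeR adjusted p = 0.0015). In the Mmul_10 annotation 78.0% of the exonic bases of TSSK6 lie opposite to exons of NDUFA13 (1139 bases), and the strand setting of the counting is not given, so reads of both genes cannot be told apart. TSSK4 was at 2.83, 2.50 and 2.18 CPM against 5.67, 6.90 and 4.70 CPM. The groups of TSSK4 did not overlap, and its smaller log2 fold change of -1.19 (SE 0.27, edgeR adjusted p = 0.018) kept its call in 3 of 6 fits that left out 1 library each. TSSK2 had no count in any library, so no fold is given.

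The axoneme and flagellum role had the most tested members, and 12 of 17 were called lower, where 10.7% of all tested genes were. Of the 12, 6 had been carried past the filter by the PDGF- group. SPATA19, a mitochondrial protein of the sperm midpiece, was at 1.22, 0.782 and 0.826 CPM in SSC PDGF+ and at 9.61, 16.3 and 12.9 CPM in SSC PDGF-. The PDGF- group had carried SPATA19 past the filter. The groups of SPATA19 did not overlap, with a log2 fold change of -3.75 (SE 0.32, edgeR adjusted p = 2.8e-04). The difference was -2.95 within batch 1 and -4.15 within batch 2. SPEM1, needed for the removal of cytoplasm from maturing spermatids, was at 0.675, 1.72 and 1.28 CPM against 9.86, 11.1 and 14.6 CPM, a log2 fold change of -3.28 (SE 0.35, edgeR adjusted p = 7.9e-04). Its relative SPEM2 was at 1.22, 1.80 and 1.73 CPM against 4.35, 10.7 and 11.4 CPM. SPEM2 was thus lower in each batch, with replicate 1 the lowest of the PDGF- libraries, and its log2 fold change was -2.47 (SE 0.41, edgeR adjusted p = 0.0055). SPATA24, described as a partner of the TATA-binding protein relative TBPL1, was at 1.35, 2.82 and 2.1 CPM against 16.3, 16.4 and 15.9 CPM. Its PDGF- libraries were nearly level, and its log2 fold change was -2.96 (SE 0.28, edgeR adjusted p = 4.2e-04), although it had been placed in the broad class.

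Members shared with motile cilia differed among themselves. SPATA18, a regulator of mitochondrial quality, was at 1.35, 1.64 and 1.13 CPM in SSC PDGF+ and at 8.05, 10.3 and 7.35 CPM in SSC PDGF- (log2 fold change -2.64, SE 0.28, edgeR adjusted p = 7.4e-04). SPATA4 was at 0.540, 0.235 and 0.0751 CPM against 4.27, 2.68 and 3.33 CPM, or -3.52 as a log2 fold change (SE 0.55, edgeR adjusted p = 0.0042). SPAG6, a protein of the central pair of microtubules, was at 0.473, 0.391 and 0.0751 CPM against 1.89, 2.20 and 3.04 CPM. SPAG6 is the member with a cAMP response element 7 bases before its start, and its log2 fold change was -2.87 (SE 0.55, edgeR adjusted p = 0.0098). SPATA17, which binds calmodulin, was at 0.203, 0.938 and 0.526 CPM against 3.12, 2.97 and 2.64 CPM, with a log2 fold change of -2.40. Not every central pair gene followed. SPAG16 was at 15.3, 13.5 and 9.32 CPM against 18.3, 14.4 and 10.8 CPM, with overlapping groups and a log2 fold change of -0.19 (SE 0.27, edgeR adjusted p = 0.66). SPAG17, the third of these, was called at the edge of the threshold (log2 fold change -1.94, edgeR adjusted p = 0.0497) and lost the call in all 6 fits that left out 1 library. SPAG8, a protein inside the doublet microtubules, was at 2.36, 3.28 and 2.25 CPM against 5.01, 7.47 and 5.0 CPM, a log2 fold change of -1.14 that kept its call in 1 of 6 such fits. SPAG1, a dynein assembly factor, and SPAG4, a SUN-domain protein with the element shown above, had log2 fold changes of 0.10 and -0.45 and overlapping groups. Markers of multiciliated epithelium were too low for the test. FOXJ1 was counted 2, 3 and 0 times with PDGF and 4, 12 and 9 times in its absence, CCNO 0, 2 and 5 times against 2, 15 and 5 times, MCIDAS 4 times in 1 PDGF- library and CDC20B in none, and the summed level of 4 listed markers was 0.135 to 0.391 CPM against 0.493 to 2.97 CPM. Their part in the result was not tested.

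The other broad members of this role had smaller estimates than SPATA24. SPACA9, a protein of the microtubule lumen, was at 11.1, 19.0 and 14.7 CPM against 23, 35.9 and 33.1 CPM. The groups did not overlap, and its log2 fold change of -1.04 (SE 0.25, edgeR adjusted p = 0.026) held in 3 of 6 fits that left out 1 library. SPATA33, which links calcineurin to sperm mitochondria, was at 4.52, 7.51 and 5.41 CPM against 8.38, 15.5 and 20.5 CPM, and its log2 fold change of -1.35 held in 1 of 6 such fits. SPATA6, a component of the connecting piece of the sperm neck, was at 38.6, 26.8 and 26.9 CPM against 46.3, 43.5 and 35.1 CPM. SPATA6 was not called (log2 fold change -0.44, edgeR adjusted p = 0.18), although it was lower with the replicate block (adjusted p = 6.3e-04). Without replicate 3 of SSC PDGF+, or replicate 2 or 3 of SSC PDGF-, 2 broad members in place of 4 were called lower.

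Acrosomal and fusion members were lower where they could be tested, with the exception of SPACA6. IZUMO4, of the family of IZUMO1 that binds the egg receptor, was at 1.89, 3.05 and 3.76 CPM in SSC PDGF+ and at 15.9, 25.2 and 22.5 CPM in SSC PDGF-. It gave a log2 fold change of -2.87 (SE 0.30, edgeR adjusted p = 7.4e-04) and was the second broad member with so large a difference, beside SPATA24. IZUMO2, with an element 6 bases before its start, was at 0.877, 0.782 and 0.601 CPM against 3.04, 3.93 and 10.6 CPM. Replicate 3 stood apart among the PDGF- libraries of IZUMO2, and the log2 fold change was -2.93 (SE 0.55, edgeR adjusted p = 0.0090), or -1.76 within batch 1 and -3.35 within batch 2. SPACA7, an acrosomal protein, was at 0.338, 0.235 and 0 CPM against 2.46, 2.87 and 2.35 CPM (log2 fold change -3.65, edgeR adjusted p = 0.0063). SPATA46, reported in the shaping of the sperm head, was at 0.203, 0.547 and 0.376 CPM against 1.40, 3.06 and 2.65 CPM (log2 fold change -2.64). SPACA6, required for fusion with the egg, was at 10.5, 18.9 and 14.9 CPM against 16.3, 23.7 and 22.3 CPM. The groups of SPACA6 overlapped and it was not called (log2 fold change -0.49, edgeR adjusted p = 0.22), while the fit with the replicate block called it lower (adjusted p = 0.0020).

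Of the sperm calcium channel, 2 of 4 tested subunits were lower and the others were not called, where 10.7% of all tested genes were called lower. Of the 2, CATSPER3 had been carried past the filter by the PDGF- group. CATSPERZ, a small auxiliary subunit, was at 1.28, 3.52 and 2.40 CPM in SSC PDGF+ and at 8.21, 12.2 and 12.1 CPM in SSC PDGF-. The groups were well apart (log2 fold change -2.17, SE 0.37, edgeR adjusted p = 0.0056). CATSPER3, a pore subunit, was at 0.608, 0.235 and 0.601 CPM against 2.63, 4.31 and 1.08 CPM, and the call (log2 fold change -2.44, SE 0.61, edgeR adjusted p = 0.028) held in 3 of 6 fits that left out 1 library. The auxiliary subunit CATSPERG was at 3.98, 4.14 and 5.18 CPM against 7.39, 6.71 and 5.49 CPM. CATSPERG did not overlap between groups, but its log2 fold change of -0.56 (SE 0.24) missed the threshold with an edgeR adjusted p of 0.14. CATSPERE, a further auxiliary subunit, was at 2.83, 1.33 and 1.35 CPM against 1.56, 0.766 and 1.37 CPM, with overlapping groups and an estimate above 0 (log2 fold change 0.57, SE 0.47, edgeR adjusted p = 0.43). Subunits of the channel thus had estimates of both signs, and differences between subunits were not tested.

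Members of earlier stages were few above the filter. SPATA22, which acts with MEIOB in meiotic recombination, was at 5.87, 4.77 and 3.98 CPM in SSC PDGF+ and at 9.36, 6.32 and 3.63 CPM in SSC PDGF-. The groups overlapped (log2 fold change -0.41, SE 0.36, edgeR adjusted p = 0.46). TEX14, a component of the bridges that join germ cells, was at 1.82, 0.704 and 0.751 CPM against 2.55, 3.45 and 3.92 CPM, and the call (log2 fold change -1.57, SE 0.44, edgeR adjusted p = 0.044) held in 2 of 6 fits that left out 1 library. The difference in TEX14 was -0.48 within batch 1 and -2.31 within batch 2. TEX15, a factor of piRNA-directed silencing, had 7, 2 and 4 counts against 8, 8 and 3 counts and was not tested. TEX13A had 0, 0 and 3 counts against 3, 2 and 8 counts.

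**Figure D3:**
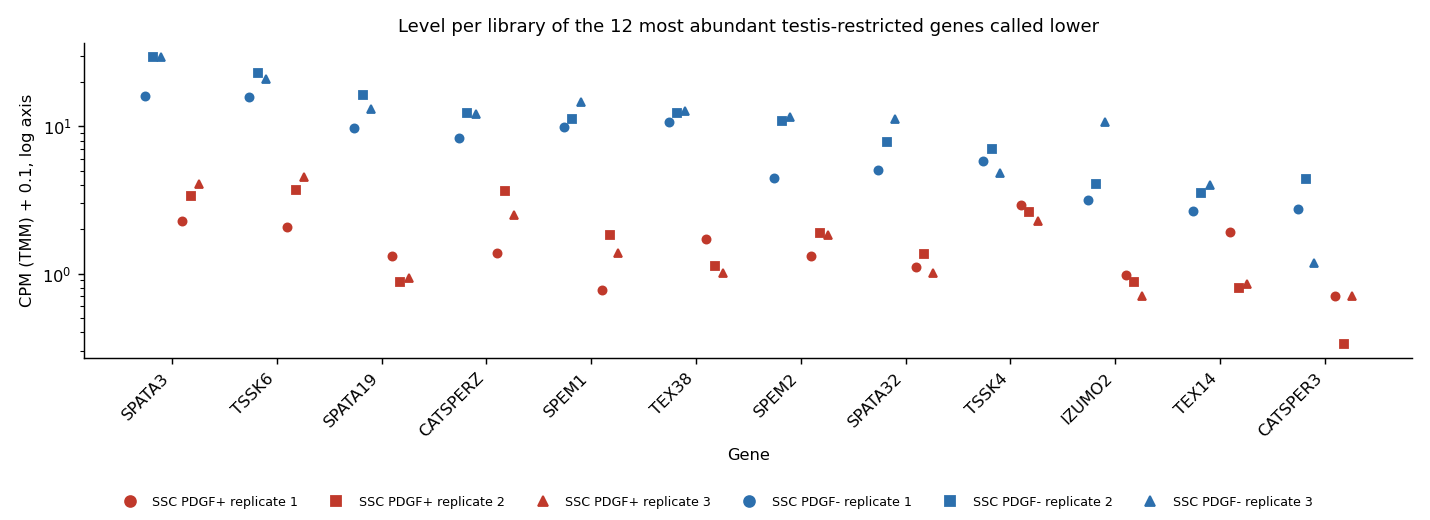
CPM plus 0.1 on a log axis in each library (colour by group, shape by replicate) for the 12 testis-restricted members called lower that had the highest mean CPM over all libraries. In each of the 12 genes every PDGF+ point lies under every PDGF- point; SPATA3 is at 2.16 to 3.98 CPM with PDGF and 16.0 to 29.4 CPM without, and in TEX14 the groups lie close, at up to 1.82 CPM and from 2.55 CPM.

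Members with housekeeping roles summed to 565 to 574 CPM with PDGF and 515 to 534 CPM without it, and 1 of 12 was called. TEX261, which serves protein export from the endoplasmic reticulum, was at 140, 158 and 156 CPM in SSC PDGF+ and at 134, 157 and 152 CPM in SSC PDGF- (log2 fold change 0.03, SE 0.13, edgeR adjusted p = 0.88). SPAG5 was at 77.7, 83.2 and 81.3 CPM against 81.5, 89.1 and 74.9 CPM, with a log2 fold change of -0.02. These groups overlapped throughout. SPATA13 was the 1 member called higher, at 37.9, 28.8 and 30.3 CPM against 20.9, 17.1 and 22.2 CPM. Its log2 fold change was 0.69 (SE 0.18, edgeR adjusted p = 0.036), and the call held in 1 of 6 fits that left out 1 library and was lost with upper quartile factors, under a minimum of 10 counts per library and with replicates 2 and 3 summed. TEX2, a lipid transfer protein at contact sites of the endoplasmic reticulum, was at 72.4, 72.3 and 60.5 CPM against 58.3, 52.1 and 50.8 CPM. Its groups did not overlap, and its log2 fold change of 0.35 was called with the replicate block (adjusted p = 3.5e-04) but not without it (adjusted p = 0.14). TEX30 was at 73.6, 50.6 and 48.8 CPM against 48.0, 32.3 and 36.0 CPM, and again only the fit with the block called it higher (log2 fold change 0.57, adjusted p = 3.6e-06, against 0.12 without the block). SPAG9 was at 70.9, 58.3 and 60.4 CPM against 66.6, 52.3 and 49.7 CPM, with overlapping groups (log2 fold change 0.17, SE 0.17, edgeR adjusted p = 0.52), and was called only with the block (adjusted p = 0.046). SPATA7, a protein of the photoreceptor cilium, was lower with the block (log2 fold change -0.73, adjusted p = 4.9e-04) and just missed the threshold without it (edgeR adjusted p = 0.059). The counts of TEX264 were identical to those of RAD54L2 in all 6 libraries, so its reads cannot be assigned to 1 gene and it is given no value.

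**Figure D4:**
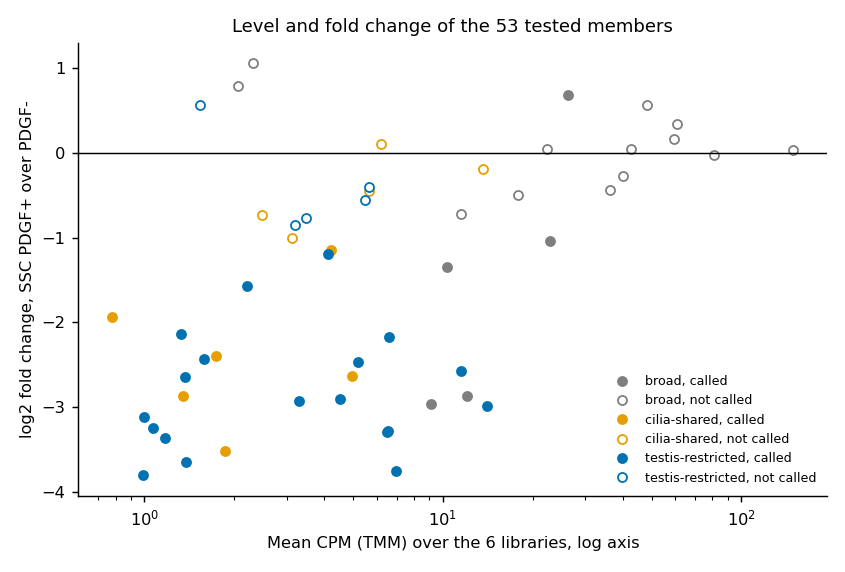
Mean CPM over the 6 libraries (horizontal, log axis) against the log2 fold change of SSC PDGF+ over SSC PDGF- (vertical) for the 53 tested members, coloured by class, with filled points for calls in edgeR. Of the 18 members with a mean of at least 10 CPM, 5 were called lower and 1 higher, and log2 fold changes under -2 reached up to SPATA3 at a mean of 14.0 CPM.

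At a limit of 1 CPM, 36 of the 76 members were under the limit in all 3 PDGF+ libraries, among them 31 testis-restricted, 5 cilia-shared and no broad genes. Of the 36, 11 reached at least 1 CPM in every PDGF- library, namely 7 testis-restricted and 4 cilia-shared genes. SPATA17, with a highest PDGF+ value of 0.938 CPM, lay just inside the limit, and SPATA19, with 1.22 CPM, just outside. The broad members stood apart by level, not corrected for length, since 15 of 18 had a mean of at least 10 CPM over all libraries, against 2 testis-restricted genes, SPATA3 and TSSK6, and 1 cilia-shared gene, SPAG16. This division by level uses the same values as the comparison and carries no test.

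Levels per length ranked the testis-restricted genes in a partly different order by group. Per kilobase of exon, the mean in SSC PDGF- was 29.5 CPM for SPATA3, 16.3 for SPATA19, 14.3 for CATSPERZ, 13.5 for TSSK6, 12.8 for SPEM1 and 11.1 for TEX38. In SSC PDGF+ the mean per kilobase was 3.73 CPM for SPATA3, 3.17 for CATSPERZ, 2.28 for TSSK6, 1.77 for SPATA22, 1.32 for SPEM1 and 1.19 for SPATA19. SPATA22 entered the leading genes with PDGF, whereas SPATA19 moved down. The 5 members with the most CPM held 46.5% of the class sum in SSC PDGF- (SPATA3, TSSK6, SPATA19, SPEM1 and TEX38) and 46.1% in SSC PDGF+ (SPATA22, CATSPERG, TSSK6, SPATA3 and TEX55).

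Below the filter, counts were too low for edgeR, and the ratio of PDGF- to PDGF+ in summed counts, scaled to library size, was given an exact binomial 95% interval that covers counting error only. Of the 20 such members, 11 had an interval entirely above 1 and none had one below 1. The share of other genes below the filter with such intervals was not computed, so these counts have no background. Of the 20, 9 were lower with PDGF without overlap between groups, where 18.6% of all genes with a count were. SPACA3, a lysozyme-like acrosomal protein, was counted 4, 4 and 3 times with PDGF and 9, 45 and 38 times in its absence, a ratio of 10.4 (interval 5.56 to 21.6). IZUMO1, the sperm ligand of the egg receptor and 1 of the members with the element shown above, had 1, 2 and 1 counts against 11, 6 and 10 counts, a ratio of 8.41 (2.93 to 33.1). Its 3 PDGF- libraries all exceeded the PDGF+ libraries. SPACA5, likewise with the element, had 4, 8 and 2 counts against 10, 8 and 13 counts, a ratio of 2.76 (1.43 to 5.62). TEX101, a surface protein of germ cells, had 0 counts in the PDGF+ libraries and 1, 12 and 9 in the PDGF- libraries. Its ratio was 9.14 with a floor of 3 counts set for the PDGF+ group, and its exact interval began at 6.83. SPATA31D1 had 0 counts against 2, 3 and 11 counts, a ratio of 6.65 with the same floor, and its exact interval began at 4.81.

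Other promoter motifs were near their general frequency or rested on few genes. The shorter element TGACGT, which the full element contains, was in 13.3% of member promoters and 8.88% of all promoters. GTTGCCA, part of the X-box bound by RFX factors of ciliary genes, was in 8.0% and 3.49%, and TATAAA, the TATA box, was in 10.7% and 9.52%. Among the members with GTTGCCA were SPATA19 and SPAG16, which had log2 fold changes of -3.75 and -0.19. Among the 29 members called lower, 2 held the full element (IZUMO2 and SPAG6), and the level of the SPAG4 promoter's gene did not pass the test.

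Transcription factors of spermatid genes were read beside the members. CREM, the activator that binds the cAMP response element, was at 91.6, 73.7 and 73.6 CPM in SSC PDGF+ and at 97.2, 74.8 and 69.4 CPM in SSC PDGF-. The groups of CREM overlapped, with a log2 fold change of -0.02 (SE 0.18, edgeR adjusted p = 0.96), and the counts do not separate its activator and repressor isoforms. FHL5, its testis coactivator also known as ACT, was at 1.75, 2.27 and 2.78 CPM against 7.72, 8.81 and 10.3 CPM, a log2 fold change of -1.98 (SE 0.27, edgeR adjusted p = 0.0021). SOX30, a regulator of spermatid genes, was at 0.338, 0.156 and 0.301 CPM against 1.40, 3.54 and 1.47 CPM (log2 fold change -2.94, edgeR adjusted p = 0.011). The PDGF- group alone was over the filter's cutoff of 0.81 CPM and carried SOX30 past it, so this p-value is not independent of the filter. Of 8 listed regulators 7 were tested, 2 were lower, SOX30 among them, and none higher, where 10.7% of all tested genes were called lower. RFX2 (log2 fold change -0.52), TBPL1 (0.11), MYBL1 (0.01) and TAF7L (-0.33) were not called, although RFX2 was lower with the replicate block (adjusted p = 0.026). BRDT, a chromatin reader of spermatids, had 2, 0 and 2 counts against 10, 8 and 15 counts and was not tested.

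Markers of spermatids moved with the members. All 11 tested genes of a list of 17 such markers, of which 13 were found, were called lower, with a median log2 fold change of -3.17, and their summed level was 101 to 143 CPM in SSC PDGF+ and 757 to 1150 CPM in SSC PDGF-. No marker found was at 0 in all libraries, and TNP1, TNP2, ODF1 and AKAP4 were counted in each. The summed level of the testis-restricted members amounted to 39.5, 26.7 and 33.5% of the marker sum in SSC PDGF+ and to 18.6, 17.5 and 16.6% in SSC PDGF-. The members were thus lower by a smaller factor than the markers, with a log2 ratio of -2.14 against -3.03. Spermatocyte markers were low in both groups, with summed levels of 1.55 to 2.58 CPM against 3.92 to 5.01 CPM over 6 of 10 listed genes. Of the germ cell markers, DDX4 had 9, 2 and 2 counts against 18, 38 and 13 counts, and MAEL had 2, 5 and 2 against 29, 40 and 22 counts. In bulk libraries fewer cells of a type and less RNA per cell cannot be told apart, and the part of spermatids in the lower level of the members was not tested.

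Over 6 libraries, the genes with a pattern most like that of SPATA3, by Pearson correlation of log2(CPM + 1), were NPTXR (0.9997), EIF3F (0.9988), PIK3R3 (0.9988), MSX2 (0.9984) and STPG3 (0.9983). Such values were common, since 689 of 11538 genes reached at least 0.95, and the points share libraries, depth and the difference between the groups.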

How the data were processed

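The authors deposited expected counts per gene for each library, that is, raw counts without normalization. Their processing notes name fastp, HISAT2 2.1.0, SAMtools and featureCounts 2.0.1 and the builds Mmul_10 and Mmul_8.0.1 without roles. The strand setting is not given in the sources used here. In 13 genes, none a member, 34 values were not whole and were rounded. Replicates were grouped by the labels. edgeR 4.0.16 (R 4.3.3) was run with TMM factors, filterByExpr by group, the quasi-likelihood test without a block and Benjamini-Hochberg adjustment over all tested genes, with calls under 0.05. The standard error is the absolute log2 fold change over the square root of F. CPM uses TMM library sizes. Within-batch values had 0.5 counts added. Intervals are exact (Clopper-Pearson, 95%), and a group at 0 had a floor of 3 counts. The intervals reflect counting error alone, because counts were summed over the libraries of a group, which leaves out the spread between libraries. The floor bounds only the group at 0 and leaves out the counting error of the other group. The counts do not identify PCR duplicates. The batch in the labels pairs replicate 1 of the groups, but within batch 2 it does not pair replicate 2 or 3 by number. The replicate block thus assumes a pairing there that the labels do not give. Same-numbered deviations from the group means correlated with r = 0.728, 0.35 and 0.374. Libraries of unlike number were not compared, so these values do not establish the pairing.

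Promoters were cut from the Mmul_10 genome at RefSeq gene starts, in place of a ready promoter table that had been planned, and motif searches are descriptive. Members named are up to 4 per role by mean CPM, those called higher, and up to 25 called lower by mean CPM. SPAG17, SPAG1, SPAG4, SPATA7, SPATA21, TEX30, TEX36, TEX52, TEX264, TEX101, SPATA31D1, IZUMO1 and SPACA5 are named outside this rule, chosen after values or sequences were seen. Members and lists were chosen with earlier results of these data known. Steps were tested on simulated data. Alternatives were other normalizations and filters, DESeq2 1.42.0, limma-voom (limma 3.58.1), batch 2 alone, the replicate block, a batch term, replicates 2 and 3 summed (also with the batch term, added after seeing the data), a stricter threshold and each library left out. The single-cell libraries were not used here. Tables came from pandas 2.3.3 and scipy 1.17.1 and figures from matplotlib 3.10.9, under Python 3.11.15.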

Additional observations from a re-analysis of the deposited data

How the results depend on the processing

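Of 722 recomputed values of the 37 tested members named by the rule, 641 kept their direction and their side of the threshold, 55 lost the call and 19 gained it. The other 7 changed sign in 3 members that no such fit called: without 1 library each SPAG16 ranged from -0.36 to 0.0080, SPAG5 from -0.074 to 0.051 and TEX261 from -0.041 to 0.099, and SPAG5 was 0.0098 without a filter and TEX261 -0.029 with upper quartile factors, on the log2 scale. Members named outside the rule are not in this tally, and of these SPAG1 ranged from -0.086 to 0.41 without 1 library each. Normalization, DESeq2 and limma-voom left the counts of lower members within 1.5 times. With the replicate block, a batch term, only batch 2, and replicates 2 and 3 summed without and with that term, the genes called higher were 3587, 3604, 3041, 206 and 3669 in place of 878, and those called lower 3347, 3387, 3085, 487 and 3420 in place of 1230. Under the same settings 5, 5, 3, 0 and 4 members were higher in place of 1, and 8, 8, 8, 2 and 8 broad members lower in place of 4. Summing also left 17 members lower in place of 29, with 3 cilia-shared in place of 6 and 12 testis-restricted in place of 19. An adjusted p under 0.01 left 358 genes higher and 544 lower, and 0 members higher and 17 lower. Upper quartile factors left 0 members higher. At least 10 counts in every library left 0 members higher and 15 lower (2 cilia-shared, 9 testis-restricted), and filterByExpr without groups at a minimum of 3 counts left 18 lower (2 and 12), since both filters tested fewer members. The median log2 fold change of the tested members, -1.19, became -1.54 without a filter, -0.78 under each of these filters, -1.67 in batch 2 alone, -1.36 with summing and batch as a term, and -1.54 over all members with a count. Leaving out 1 library each gave 435 to 1284 genes higher and 726 to 1726 lower, 0 to 2 members higher and 18 to 31 lower, 2 to 4 broad and 3 to 5 cilia-shared members lower, and a median of -1.69 to -1.31. The summed level of the testis-restricted members had log2 ratios of -2.27 to -2.06 in these fits. Except for the filters, the cause was not tested. At this depth 20 members with counts could not be tested, and 3 had no count.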
